A study of Rattus norvegicus with 20 samples.

Results

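UDP-glucuronosyltransferases (UGTs) and cytosolic sulfotransferases (SULTs) were measured in rat liver as every row of the gene table whose name began with Ugt1, Ugt2, Ugt3 or Sult. The rule took 18 of 32883 genes, 6 of them UGTs and 12 SULTs. Of these 18 genes, 15 were expressed, defined as a scaled TPM (a length-scaled transcript level) of at least 0.5 in at least 5 of the 20 libraries. Livers came from male rats in 4 groups of 5, with 1 library per rat. In the KYDS+BGZ_L group, hydrocortisone (25 mg/kg) was combined with BGZ_L powder (0.9 g/kg). KYDS rats received hydrocortisone alone at 25 mg/kg, the treatment that stands for kidney-yang deficiency syndrome in the labels. The powder alone, at the same dose of 0.9 g/kg, was given to BGZ_L rats, and 0.5% CMC-Na to CON rats. The series title names Psoraleae Fructus as the remedy, while the labels do not spell out BGZ_L. The labels used here give no strain, age or length of treatment. Because these are bulk samples, fewer cells of a type and less RNA per cell cannot be told apart.

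Both families carry out the conjugation phase of detoxification, in which a polar group is attached to a drug, steroid, bile acid or thyroid hormone so that it can leave the cell. UGTs sit in the membrane of the endoplasmic reticulum and transfer glucuronic acid from UDP-glucuronic acid, whereas SULTs work in the cytosol and transfer sulfate from the donor PAPS. Liver is the main site of both reactions, and many of these genes are known targets of nuclear receptors and of the aryl hydrocarbon receptor.

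Promoter windows are shown for 4 of the genes that passed a test below. Each window is the RefSeq sequence of build GRCr8, from 250 bases before to 50 bases after the annotated start. The windows of Ugt2b15 (chr14:21122616-21122915, plus strand) and Ugt2b35 (chr14:21208191-21208490, plus strand) are printed because both genes were higher in KYDS+BGZ_L than in BGZ_L livers. Both genes belong to the same chromosome 14 cluster, and capitals mark stretches of at least 12 bases found in both windows. The windows of Ugt1a6 (chr9:96194768-96195067, plus strand) and Sult2b1 (chr1:105397695-105397994, minus strand) are printed because they were the 2 of 15 expressed members that held the letters GCGTG, the core bound by the aryl hydrocarbon receptor. Capitals mark that core on either strand.
Ugt2b15: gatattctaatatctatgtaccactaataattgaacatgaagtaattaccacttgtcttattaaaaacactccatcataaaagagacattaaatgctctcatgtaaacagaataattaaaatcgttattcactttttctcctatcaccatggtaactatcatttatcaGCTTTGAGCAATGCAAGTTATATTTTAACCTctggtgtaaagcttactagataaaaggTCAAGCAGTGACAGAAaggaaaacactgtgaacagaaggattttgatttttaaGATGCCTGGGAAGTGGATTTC
Ugt2b35: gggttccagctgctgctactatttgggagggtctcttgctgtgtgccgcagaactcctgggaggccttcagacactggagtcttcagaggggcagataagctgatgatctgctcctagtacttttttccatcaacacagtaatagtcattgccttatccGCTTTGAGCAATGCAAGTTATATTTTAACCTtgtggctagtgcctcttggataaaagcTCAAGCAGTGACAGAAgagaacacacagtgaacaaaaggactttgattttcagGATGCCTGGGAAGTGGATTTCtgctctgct
Ugt1a6: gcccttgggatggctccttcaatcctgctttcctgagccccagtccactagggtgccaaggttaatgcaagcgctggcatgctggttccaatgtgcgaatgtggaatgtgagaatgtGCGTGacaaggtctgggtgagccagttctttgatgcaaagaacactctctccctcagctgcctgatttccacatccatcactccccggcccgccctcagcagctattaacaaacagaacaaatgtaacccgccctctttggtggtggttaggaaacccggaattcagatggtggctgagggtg
Sult2b1: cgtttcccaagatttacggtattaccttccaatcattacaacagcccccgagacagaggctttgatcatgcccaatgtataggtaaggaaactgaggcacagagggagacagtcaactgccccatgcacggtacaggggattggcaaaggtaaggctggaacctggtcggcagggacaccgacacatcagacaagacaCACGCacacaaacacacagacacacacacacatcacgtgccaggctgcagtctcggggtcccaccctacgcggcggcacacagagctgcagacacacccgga

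The Ugt2b15 and Ugt2b35 windows shared 3 such stretches, 68 bases in all. The last of them lay after the annotated start in both windows, so it is transcribed sequence and not upstream promoter. The longest was the 31-base stretch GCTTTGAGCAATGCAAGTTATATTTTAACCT, which began 82 bases before the start of Ugt2b15 and 91 bases before that of Ugt2b35 (offsets -82 and -91). It occurred in 5 of 33469 windows, and the other 3 belonged to Ugt2b, Ugt2b37 and LOC134478834, genes of the same chromosome 14 cluster. Among the 105 pairs of expressed members, the longest stretch shared by any other pair had 11 bases. The windows of all 15 expressed members were searched on both strands for 4 motifs, and no match overlapped one of another motif. GCGTG was in 29.7% of all windows, at -133 in Ugt1a6 and on the minus strand at -52 in Sult2b1. The glucocorticoid receptor palindrome, searched as AGNACA and TGTNCT with 3 bases of any kind between them, was in 0.0568% of all windows and in 0 of the 15. The HNF1 motif GTTAAT was in 7.45% of all windows and in 3 of the 15, namely Ugt1a6, Ugt2a3 and Ugt2b10. The antioxidant response core TGANNNNGC was in 40.5% of all windows and in 7 of the 15. A match describes letters in a window and not a bound site.

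Of the 20 libraries, the summed deposited values ran from 914343 to 983962, and depth is unknown because TPM keeps no totals. The 13 mitochondrially encoded genes took 48.9% ± 17.7 of the total in KYDS+BGZ_L livers, 42.4% ± 18.0 in KYDS livers, 67.3% ± 17.3 in BGZ_L livers and 75.1% ± 10.2 in CON livers (SD, n = 5 each), with single libraries between 19.2% (KYDS 3) and 90.1% (CON 2). Values were therefore rescaled between libraries, with factors between 0.231 (CON 2) and 2.01 (KYDS 2). All 8 hepatocyte markers were expressed, and their summed scaled TPM was 8740 to 44100 in KYDS+BGZ_L livers, 6220 to 62200 in KYDS livers, 5140 to 5870 in BGZ_L livers and 5090 to 9020 in CON livers. Of these markers 4 were called higher (Alb, Ttr, Serpina1 and Apob) and 0 lower in KYDS+BGZ_L against BGZ_L livers (median log2 fold change 1.38). In KYDS against CON livers 3 were called higher (Ttr, Tf and Apob) and 0 lower (median 1.2). Over all tested genes 8.8% and 3.25% were called higher, with medians of 0.06 and 0.05. Hnf4a, a marker on the same list, was below 0 in both comparisons without passing (-0.67 and -0.14, limma adjusted p = 0.121 and 0.809). Leaving out single libraries ended the calls between KYDS and CON livers in 5 (Ttr), 11 (Tf) and 7 (Apob) of 20 fits, and none of the 3 passed with the nuclear to mitochondrial covariate described below (adjusted p = 0.799, 0.702 and 0.901). In KYDS+BGZ_L against BGZ_L livers Alb and Serpina1 held in all 20 fits, Ttr was lost in 2 and Apob in 4. With the covariate Alb alone passed there (adjusted p = 0.0387), while Ttr (0.102), Serpina1 (0.0564) and Apob (0.127) did not. Of 7 Kupffer cell and macrophage markers, 1 (Cd163) was called higher and 0 lower in each hydrocortisone comparison, with a median log2 fold change of -0.28 in KYDS+BGZ_L against BGZ_L livers and 0.69 in KYDS against CON livers. Their summed scaled TPM was 43.3 to 155 in KYDS+BGZ_L livers, 60.9 to 155 in KYDS livers, 40.6 to 504 in BGZ_L livers and 40.7 to 64.1 in CON livers. With the covariate Cd163 passed neither in KYDS+BGZ_L against BGZ_L livers (adjusted p = 0.152) nor in KYDS against CON livers (0.541). Of 3 tested blood cell markers, 1 (Ptprc, a leukocyte gene) was called lower and 0 higher in each, with medians of -0.35 and 0.31 in the same order of comparisons. Ptprc was not called in KYDS against CON livers without scaling (log2 fold change -0.55, adjusted p = 0.384) or with the covariate (-0.42, adjusted p = 0.891). In KYDS+BGZ_L against BGZ_L livers it passed in both settings (adjusted p = 0.0153 and 0.00118). The endothelial, stellate cell and cholangiocyte lists had 0 called genes, and 0 of 4 kidney markers passed the filter. The share of these marker shifts in the results below was not tested.

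Among the UGTs, 5 of 6 were expressed. Ugt2b15 had the highest mean of these over the 20 libraries, 340.2 scaled TPM, followed by Ugt2a3 (153), Ugt2b35 (136), Ugt1a6 (64.3) and Ugt2b10 (24.7). Ugt3a2, whose human counterpart uses other sugar donors than UDP-glucuronic acid, was not expressed, with a highest deposited value of 0.14 TPM. Among the SULTs, 10 of 12 were expressed. Sult2a1 had the highest mean of these, 415 scaled TPM, followed by Sult1e1 (232), Sult1a1 (174), Sult1b1 (60.9) and Sult1c3 (42.0). Sult1c2a (6.26), Sult2b1 (3.87), Sult1c2 (1.28), Sult5a1 (0.817) and Sult6b1 (0.636) lay far lower. Sult1d1, a rodent enzyme that sulfates catecholamines, and the brain gene Sult4a1 were not expressed, with highest deposited values of 0.16 and 0.06 TPM.

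The effect of hydrocortisone was first compared in rats that all received BGZ_L. In KYDS+BGZ_L against BGZ_L livers, 5 of the 15 expressed genes were higher and 0 lower by limma (Benjamini-Hochberg adjusted p under 0.05), against a background of 8.8% of all 11869 tested genes called higher and 8.55% called lower. The 5 were the UGTs Ugt1a6, Ugt2b15 and Ugt2b35 and the SULTs Sult1b1 and Sult2b1. In the same 5 genes every KYDS+BGZ_L library lay above every BGZ_L library, a pattern that 7.2% of all tested genes showed. The median log2 fold change of the 15 genes was 0.56, against 0.06 over all tested genes. The rule did not choose these genes by their values, but they were proposed with results of these libraries in view.

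Ugt1a6 (ENSRNOG00000018740), which conjugates small planar phenols and is the textbook target of the aryl hydrocarbon receptor among UGTs, stood at 274, 48.3, 89.0, 180.1 and 84.0 scaled TPM in KYDS+BGZ_L livers 1 to 5, against 30.5, 14.5, 16.4, 15.9 and 25.4 in BGZ_L livers 1 to 5. The lowest KYDS+BGZ_L liver was above the highest BGZ_L liver, and rats 1 and 4 of KYDS+BGZ_L stood well above the other three. The log2 fold change was 2.49 (SE 0.49), a 5.6-fold difference (adjusted p = 0.0036). Ugt1a6 was 47.9, 52.9, 159.6, 24.1 and 77.9 in KYDS livers, against 24.1, 18.8, 13.3, 44.6 and 45.2 in CON livers. Here the groups overlapped, since KYDS 4 lay among the CON livers, and the log2 fold change of 1.18 (SE 0.49) did not pass (adjusted p = 0.149). In RefSeq, 8 coding Ugt1a genes share a 3′ end, and 1 of them has a row under the rule, so reads of other Ugt1a first exons may be counted in it.

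Ugt2b15 (ENSRNOG00000046540), whose human counterpart conjugates androgens, stood at 824, 175, 287, 1010.0 and 614 scaled TPM in KYDS+BGZ_L livers, against 102, 45.5, 63.8, 57.9 and 112 in BGZ_L livers. The groups did not overlap, and the log2 fold change was 2.73 (SE 0.61), a 6.64-fold difference (adjusted p = 0.00642). The KYDS livers had 553, 444, 639, 177 and 549.8, against 159.9, 78.2, 39.7, 522 and 350.2 in CON livers. CON livers spread widely, with CON 4 and 5 inside the KYDS range, and the log2 fold change of 1.47 (SE 0.61) did not pass (adjusted p = 0.145). Without CON 4 it passed (adjusted p = 0.0493).

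Ugt2b35 (ENSRNOG00000001980), a UGT2B gene of the same chromosome 14 cluster, stood at 178, 158, 175, 266 and 235 scaled TPM in KYDS+BGZ_L livers, against 104, 28.0, 33.5, 24.4 and 79.1 in BGZ_L livers. No KYDS+BGZ_L liver was as low as any BGZ_L liver, and the log2 fold change was 2.12 (SE 0.53; adjusted p = 0.0112). KYDS livers had 232, 163, 212, 118 and 126, against 179, 62.8, 17.7, 161 and 176 in CON livers. These groups overlapped, with only CON 2 and 3 below every KYDS liver, and the log2 fold change was 0.87 (SE 0.53; adjusted p = 0.327).

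Ugt1a6 and Ugt2b15 also moved with the composition of the libraries. With group means removed, the log2 level of Ugt1a6 correlated over the 20 libraries with how far nuclear TPM exceeded mitochondrial TPM, as a log2 ratio (Pearson's r = 0.815, permutation p = 0.00016, adjusted over 15 relations 0.0024; Spearman's rho = 0.815, permutation p = 0.00016, adjusted 0.0024). The 3 highest Ugt1a6 values belonged to KYDS+BGZ_L 1, KYDS+BGZ_L 4 and KYDS 3, where mitochondrial genes took 26.6%, 35.1% and 19.2% of the total. Ugt2b15 passed too (r = 0.648, permutation p = 0.00252, adjusted 0.0189; rho = 0.677, permutation p = 0.00272, adjusted 0.0204), and Ugt2b35 did not (r = 0.439, permutation p = 0.054, adjusted 0.27; rho = 0.553, permutation p = 0.0136, adjusted 0.068). Leaving out KYDS 3 and CON 2, whose ratios were the most extreme, gave r = 0.782 for Ugt1a6, 0.614 for Ugt2b15 and 0.408 for Ugt2b35. None of the other 12 expressed members passed, and their r ran from -0.164 to 0.304. With that ratio as a covariate, the log2 fold change in KYDS+BGZ_L against BGZ_L livers was 1.72 for Ugt1a6 (adjusted p = 0.00814), 1.97 for Ugt2b15 (adjusted p = 0.0351) and 1.68 for Ugt2b35, which no longer passed (adjusted p = 0.0727). For KYDS against CON livers the Ugt1a6 value turned to -0.2 with the covariate (adjusted p = 0.966). The ratio itself differed with treatment. It was -3.18 to -0.93 in CON livers and -1.14 to 2.07 in KYDS livers, where KYDS 4 alone lay in the CON range. In BGZ_L livers it was -2.17 to 0.61, and in KYDS+BGZ_L livers -1.24 to 1.47. Effects of hydrocortisone and of library composition therefore cannot be told apart by a fit with this covariate.

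**Figure D1:**
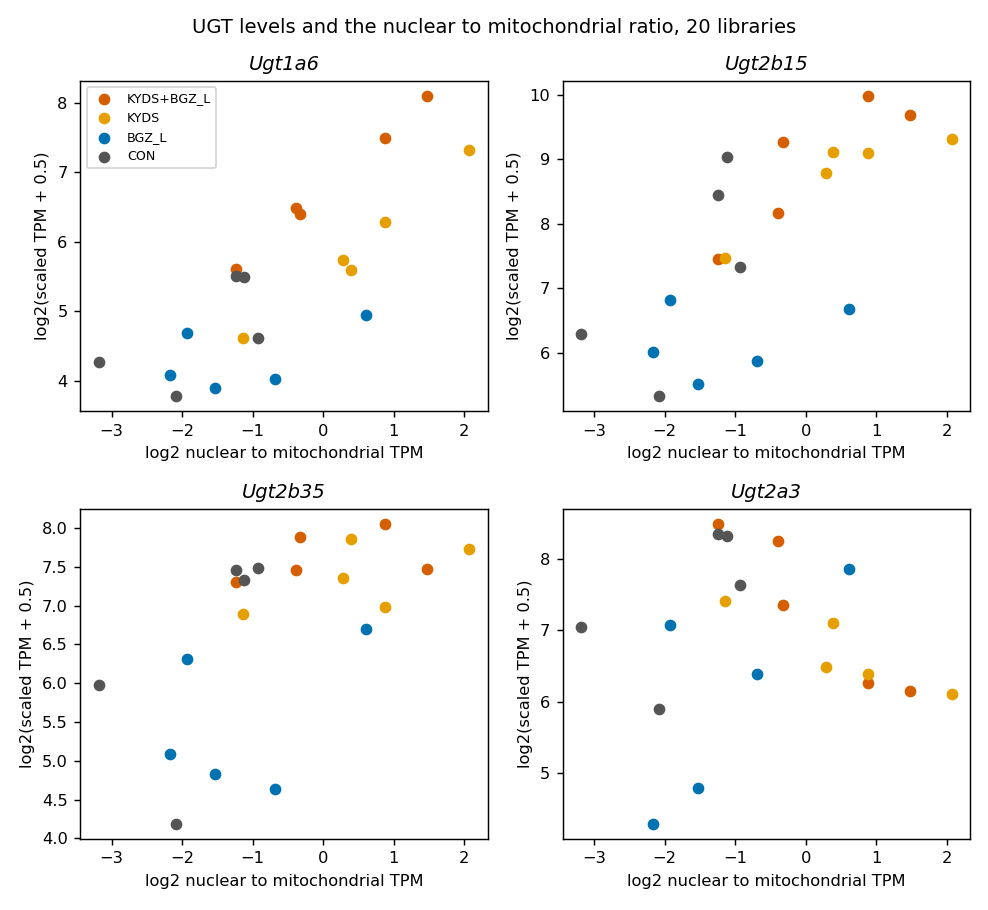
Level of 4 UGT genes, as log2 of scaled TPM plus 0.5 (vertical axis), against nuclear over mitochondrial TPM on a log2 scale (horizontal axis); each point is 1 of 20 libraries, coloured by group. Ugt1a6 and Ugt2b15 points climb to the right (r = 0.815 and 0.648 with group means removed), whereas Ugt2a3 points show no such slope over all libraries (r = 0.0196).

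Sult1b1 (ENSRNOG00000001967), which sulfates thyroid hormones and small phenols, stood at 143, 51.6, 64.6, 133 and 106 scaled TPM in KYDS+BGZ_L livers, against 22.9, 36.7, 33.8, 29.4 and 48.9 in BGZ_L livers. The groups did not overlap, though KYDS+BGZ_L 2 and BGZ_L 5 came close, and the log2 fold change was 1.46 (SE 0.33; adjusted p = 0.0067). KYDS livers had 61.8, 67.0, 89.6, 56.7 and 55.8, against 23.4, 29.4, 40.4, 75.2 and 49.9 in CON livers. Only CON 4 reached into the KYDS range, and the log2 fold change of 0.69 (SE 0.33) did not pass (adjusted p = 0.204). Recomputing TPM over nuclear genes, with no further scaling, left the fold change in KYDS+BGZ_L against BGZ_L livers at 1.54 and ended the call (adjusted p = 0.0802).

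Sult2b1 (ENSRNOG00000021046), which sulfates cholesterol and pregnenolone, was expressed at a low level. It stood at 5.23, 5.45, 8.57, 6.97 and 7.21 scaled TPM in KYDS+BGZ_L livers, against 1.92, 2.69, 0, 2.06 and 1.51 in BGZ_L livers, where BGZ_L 3 was listed at 0. The groups did not overlap, and the log2 fold change was 1.96 (SE 0.38; adjusted p = 0.00329). Without BGZ_L 3 it was 1.51 (adjusted p = 0.00353). KYDS livers had 7.05, 2.82, 4.46, 5.10 and 3.62, against 4.36, 1.99, 2.16, 2.11 and 2.18 in CON livers. CON 1 lay within the KYDS range and the other CON livers below it, and the log2 fold change of 0.73 (SE 0.38) did not pass (adjusted p = 0.246).

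**Figure D2:**
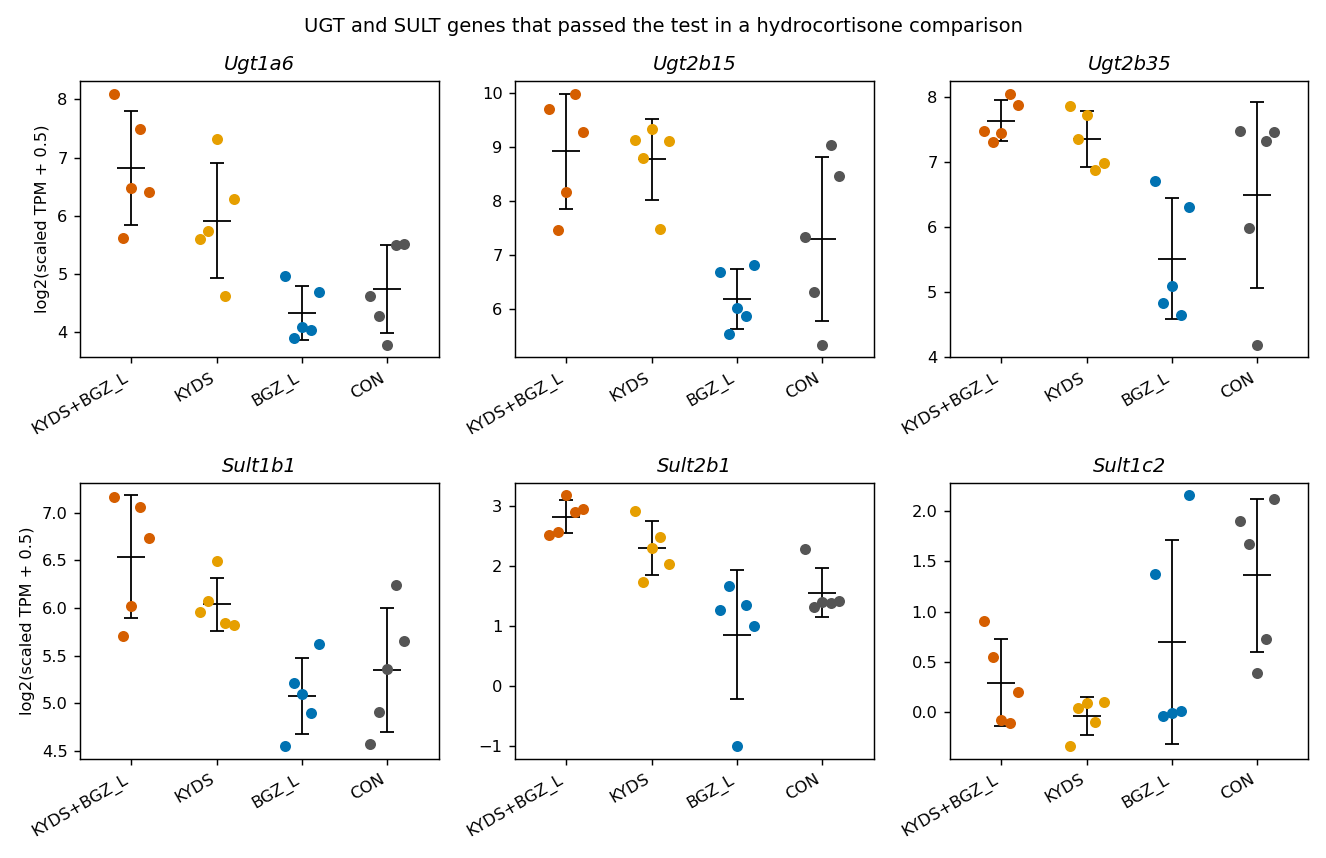
Level of the 6 genes that passed in a hydrocortisone comparison, as log2 of scaled TPM plus 0.5; each point is 1 liver, and the bars give the mean ± SD of 5. In the 5 genes other than Sult1c2, all KYDS+BGZ_L livers lie above all BGZ_L livers, and in Sult1c2 all KYDS livers lie below all CON livers.

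The calls of all 5 genes held in each of the 20 fits that left out 1 library, and the highest adjusted p among those fits was 0.0353, for Ugt2b35 without KYDS+BGZ_L 4. They also held when CON 2 and BGZ_L 3, which had the smallest factors, were left out together. With libraries left unscaled, the median log2 fold change over all genes was 0.63, against 0.06 with scaling, and the 5 fold changes ran from 2.29 for Sult1b1 to 3.57 for Ugt2b15.

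The other 10 expressed genes did not pass in KYDS+BGZ_L against BGZ_L livers. Sult1e1, the estrogen sulfotransferase, was nearest, at 377, 261, 197, 679.6 and 335 scaled TPM in KYDS+BGZ_L livers, against 93.0, 204, 235, 121 and 211 in BGZ_L livers. KYDS+BGZ_L 3 fell inside the BGZ_L range, and the log2 fold change was 1.05 (SE 0.43; adjusted p = 0.0978). In KYDS livers Sult1e1 was 195, 152, 553, 119.5 and 149, against 159.9, 85.8, 296, 103 and 116 in CON livers. These groups overlapped, with KYDS 3 and CON 3 the highest of their groups, and the log2 fold change was 0.52 (SE 0.43; adjusted p = 0.486).

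Ugt2a3, whose human counterpart acts on bile acids, stood at 70.3, 361, 306, 76.4 and 164 scaled TPM in KYDS+BGZ_L livers, against 232, 27.1, 19, 83.4 and 134 in BGZ_L livers. Both groups spread widely and overlapped, and the log2 fold change was 1.23 (SE 0.64; adjusted p = 0.194). KYDS livers had 138, 88.9, 68.2, 169.8 and 83.3, against 199, 132, 59.3, 320.3 and 326 in CON livers. The groups overlapped as well, and the log2 fold change of -0.75 (SE 0.64) pointed the other way without passing (adjusted p = 0.495).

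Sult2a1, the hydroxysteroid and bile acid sulfotransferase, stood at 477, 289.7, 81.4, 538 and 218 scaled TPM in KYDS+BGZ_L livers, against 82.3, 1204, 1085, 214 and 879 in BGZ_L livers. BGZ_L livers fell apart into a low pair (rats 1 and 4) and a high trio, and the log2 fold change was -0.79 (SE 0.66; adjusted p = 0.433). KYDS livers had 155, 338, 625, 265 and 194, against 390.0, 274, 538, 259 and 199 in CON livers. These ranges largely coincided (log2 fold change -0.16, SE 0.66; adjusted p = 0.903).

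Sult1a1, the main phenol sulfotransferase, stood at 165, 108, 154, 178 and 179 scaled TPM in KYDS+BGZ_L livers, against 134, 169, 266, 257 and 192 in BGZ_L livers. The ranges overlapped, with a log2 fold change of -0.35 (SE 0.31; adjusted p = 0.452). KYDS livers had 91.8, 91.7, 255, 134 and 194, against 158, 137, 290.1, 146 and 178 in CON livers. Here too they overlapped, with a log2 fold change of -0.31 (SE 0.31; adjusted p = 0.569).

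**Figure D3:**
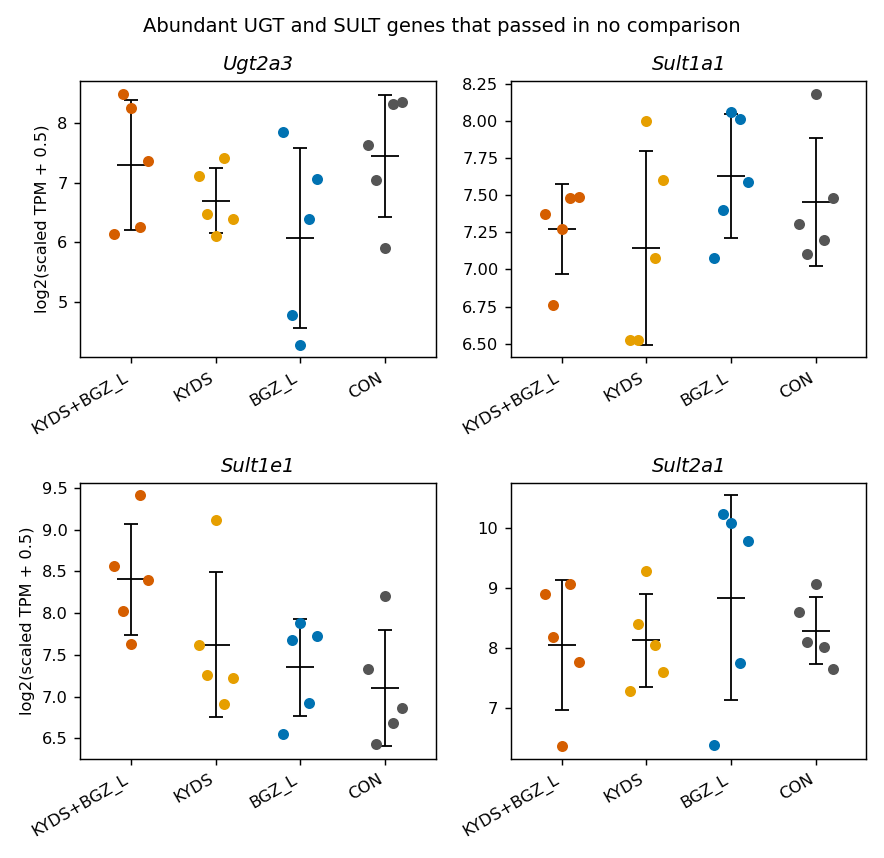
Level of the 4 most abundant genes that passed in no comparison, as log2 of scaled TPM plus 0.5; each point is 1 liver, and the bars give the mean ± SD of 5. The groups overlap in every hydrocortisone comparison, and Sult2a1 in BGZ_L livers splits into 3 livers at 879 to 1204 scaled TPM and 2 at 82.3 and 214.

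Sult5a1 and Sult6b1 stayed near the detection filter, with means of 0.817 and 0.636 scaled TPM. Sult5a1 had 0.436, 1.49, 0.759, 0.430 and 0.922 scaled TPM in KYDS+BGZ_L livers, 0.747, 0.154, 0, 0.259 and 0.433 in KYDS livers, 1.30, 0.406, 0, 5.84 and 0.146 in BGZ_L livers and 0.945, 1.17, 0.0868, 0.697 and 0.127 in CON livers. Sult6b1 had 0.212, 0.490, 0.416, 0.169 and 0.414 in KYDS+BGZ_L livers, 0.856, 1.07, 0.171, 0.808 and 0.627 in KYDS livers, 0.516, 5.43, 0, 0.253 and 0.0788 in BGZ_L livers and 0.124, 0.259, 0, 0.245 and 0.581 in CON livers. The single BGZ_L livers at 5.84 and 5.43 stood above all other livers for these genes, and neither gene passed in any comparison. The other 3 expressed genes were given by range: Ugt2b10 ran from 12.2 to 53.6 scaled TPM over the 20 libraries, Sult1c3 from 9.92 to 77.9 and Sult1c2a from 0.848 to 13.4.

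Hydrocortisone without BGZ_L was compared in KYDS against CON livers, where 1 of 15 genes was lower and 0 were higher, against backgrounds of 3.02% of tested genes called lower and 3.25% called higher. The gene was Sult1c2 (ENSRNOG00000040215), a phenol sulfotransferase of the SULT1C subfamily. It stood at 0.289, 0.532, 0.568, 0.435 and 0.571 scaled TPM in KYDS livers, against 3.23, 2.68, 0.810, 1.16 and 3.85 in CON livers. Every KYDS liver was below every CON liver, which was so for 3.18% of tested genes, and the log2 fold change was -1.40 (SE 0.41; adjusted p = 0.0467). Sult1c2 was 1.37, 0.960, 0.447, 0.430 and 0.648 in KYDS+BGZ_L livers, against 2.09, 0.476, 0.492, 0.506 and 3.96 in BGZ_L livers. BGZ_L 2, 3 and 4 were as low as those of the hydrocortisone groups, and the log2 fold change was -0.40 (SE 0.41; adjusted p = 0.524). The KYDS call was lost in 13 of the 20 fits that left out 1 library, namely CON 1, CON 2, CON 5, any KYDS or any KYDS+BGZ_L library, with adjusted p up to 0.113 without CON 2. It was lost as well with the nuclear to mitochondrial covariate (log2 fold change -1.62, adjusted p = 0.408) and in 5 further settings, where the fold change was -1.39 to -1.41 except without scaling.

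The call in KYDS against CON depended on scaling. With libraries left unscaled, the median log2 fold change over all genes was 1.03, against 0.05 with scaling, 8 of 15 members were called higher and 0 lower, and 48.8% of all genes tested were called. For Sult1c2 the log2 fold change was -0.54 there (adjusted p = 0.287). The 5 genes called in KYDS+BGZ_L against BGZ_L livers had positive scaled fold changes in KYDS against CON livers too, from 0.69 for Sult1b1 to 1.47 for Ugt2b15, none of which passed. The nuclear to mitochondrial ratio itself differed between these groups. With it as a covariate these fold changes shrank to 0.37 for Sult1b1, 0.42 for Sult2b1, 0.1 for Ugt2b15 and 0.07 for Ugt2b35. For Ugt1a6 the value was -0.2 there, and none of the 5 passed (limma adjusted p from 0.923 to 0.996). At an unadjusted p under 0.05, 4 of the 15 members passed in KYDS against CON livers, compared with 24.1% of all tested genes.

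The other SULT1C members did not follow Sult1c2 past the threshold. Sult1c2a had a log2 fold change of -1.01 (SE 0.49; adjusted p = 0.216) and Sult1c3 of -0.62 (SE 0.44; adjusted p = 0.401) in KYDS against CON livers. Reads of near-identical copies can be split between these rows, and 5 rows outside the rule belong to relatives of SULT1C by their descriptions in the gene table. Their log2 fold changes in KYDS against CON livers ran from -0.84 (RGD1559960) to 1.89 (LOC100910235), with 0 called. In KYDS+BGZ_L against BGZ_L livers LOC100910235 alone of the 5 was called (log2 fold change 3.20, SE 0.82; adjusted p = 0.0131). The Ugt2b rows carry the same uncertainty, since RefSeq lists 16 coding genes in the cluster from Sult1e1 to Ugt2b10 on chromosome 14, 13 of them UGTs or SULTs, and 7 of these have a row under the rule.

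**Figure D4:**
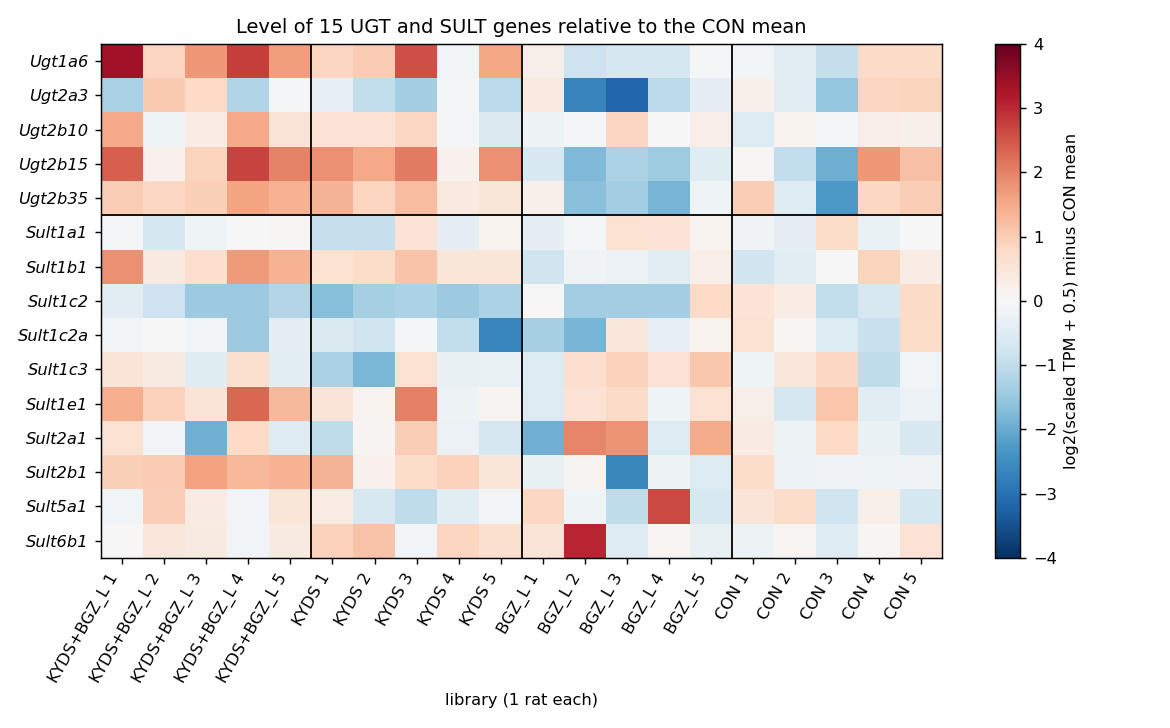
Level of the 15 expressed genes (rows) in each of the 20 livers (columns), as log2 of scaled TPM plus 0.5 minus the mean of the 5 CON livers; red is above and blue below the CON mean, and lines separate the 4 groups and the UGTs from the SULTs. Ugt1a6 and Ugt2b15 are reddest in KYDS+BGZ_L 1 and 4, the Sult1c2 row is blue in all KYDS livers, and single dark cells in BGZ_L mark Sult5a1 (5.84 scaled TPM), Sult6b1 (5.43) and Sult2b1 (0).

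No gene of either family passed the test in a comparison of BGZ_L. In KYDS+BGZ_L against KYDS livers 0 of 15 were called by limma, against a background of 0.126% of all tested genes, and 0 of 15 had an unadjusted p under 0.05 (3.42% of all genes). The log2 fold changes ran from -0.48 for Sult6b1 to 0.90 for Ugt1a6, and 13 of 15 were above 0, compared with 47.4% of all genes. In BGZ_L against CON livers 0 of 15 were called, with a background of 0%. One member, Ugt2a3, had an unadjusted p under 0.05, against 6.02% of all genes (log2 fold change -1.38, SE 0.64; limma adjusted p = 0.82). The fold changes of Ugt2b15 (-1.11, SE 0.61), Ugt2b35 (-0.97, SE 0.53) and Sult2b1 (-0.70, SE 0.38) were also below 0 without passing (adjusted p = 0.827 each).

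The response to hydrocortisone was not shown to differ with BGZ_L. The interaction, taken as the difference between KYDS+BGZ_L against BGZ_L and KYDS against CON, was called in 0 of 15 members by limma, against a background of 0.0253%. At an unadjusted p under 0.05 it passed in 2 of 15, compared with 3.76% of all genes. These were Sult2b1 (1.23 on the log2 scale, SE 0.54) and Ugt2a3 (1.98, SE 0.91), both with an adjusted p of 0.9992 by limma. For Ugt1a6 the 95% interval of the difference ran from -0.17 to 2.79, and for Ugt2b15 from -0.57 to 3.09.

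**Figure D5:**
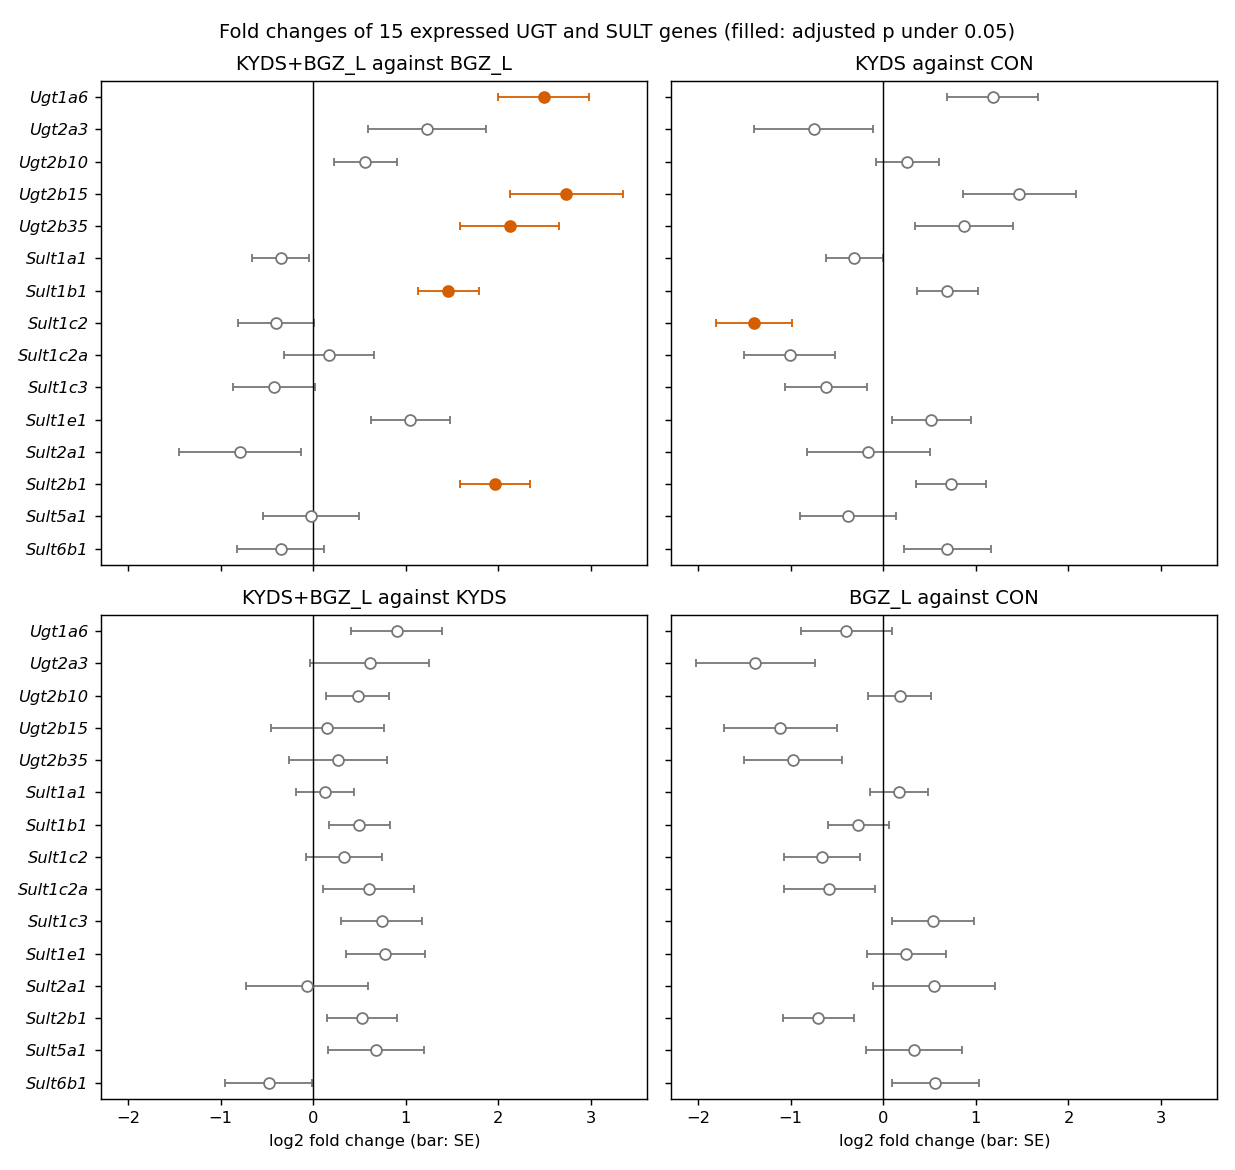
Log2 fold changes (horizontal axis, bars give the SE) of the 15 expressed genes (rows) in the 4 comparisons between groups; filled points have an adjusted p under 0.05. Filled points are the 5 genes right of 0 in KYDS+BGZ_L against BGZ_L and Sult1c2 left of 0 in KYDS against CON, and the 2 comparisons of BGZ_L hold none.

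Genes that supply and handle the conjugates were read from 5 lists. Their counts stand beside 8.8% of all tested genes called higher and 8.55% called lower in KYDS+BGZ_L against BGZ_L livers, and 3.25% and 3.02% in KYDS against CON livers. In the list for the supply of UDP-glucuronic acid, 3 of 9 tested genes were higher and 0 lower in KYDS+BGZ_L against BGZ_L livers. The median log2 fold change was 0.61, against 0.06 over all genes. The higher genes were the nucleotide sugar transporters Slc35d2 (log2 fold change 1.07, adjusted p = 0.0448) and Slc35a3 (0.86, adjusted p = 0.0248) and phosphoglucomutase Pgm1 (0.78, adjusted p = 0.04). Slc35a3 lay near the detection filter, at 0.721 ± 0.3 scaled TPM in KYDS+BGZ_L livers and 0.156 ± 0.06 in BGZ_L livers (SD, n = 5 each). Whether Slc35d2 and Slc35a3 carry UDP-glucuronic acid was not tested. Ugdh, which makes UDP-glucuronic acid, was not called (0.43, adjusted p = 0.291), nor was Ugp2, which makes its precursor (-0.62, adjusted p = 0.462). Slc35d1, another nucleotide sugar transporter of the list, was not called either (0.71, adjusted p = 0.126). The supply itself was not measured. In KYDS against CON livers 0 of 9 were called, and the median was 0.18.

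For the sulfate donor PAPS, 2 of 7 tested genes were higher and 0 lower in KYDS+BGZ_L against BGZ_L livers (median 0.53). Slc35b2, which carries PAPS into the Golgi apparatus, averaged 3.47 ± 0.764 scaled TPM in KYDS+BGZ_L livers and 1.01 ± 0.582 in BGZ_L livers (SD, n = 5 each; log2 fold change 1.46, adjusted p = 0.00535). It was the single gene of the list called in KYDS against CON livers, where it averaged 3.74 ± 1.08 in KYDS livers and 1.5 ± 1.01 in CON livers (log2 fold change 1.19, adjusted p = 0.0329). The sulfate transporter Slc26a1 was the other higher gene in KYDS+BGZ_L against BGZ_L livers (1.19, adjusted p = 0.0444). The PAPS synthases Papss1 and Papss2 had log2 fold changes of -0.12 and 0.03 in that comparison (adjusted p = 0.78 and 0.939).

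Among transporters of conjugates and other organic anions, 4 of 11 tested genes were higher and 0 lower in KYDS+BGZ_L against BGZ_L livers, with a median of 1.16. The uptake carrier Slco1a4 averaged 15.7 ± 9.51 scaled TPM in KYDS+BGZ_L livers and 2.13 ± 1.08 in BGZ_L livers (SD, n = 5 each; log2 fold change 2.50, adjusted p = 0.00347). It was also higher in KYDS livers, at 15 ± 8.82, than in CON livers, at 4.10 ± 2.99 (log2 fold change 1.82, adjusted p = 0.0366). Slco1b2, the main hepatic organic anion uptake carrier of rodents, averaged 118 ± 32.3 in KYDS+BGZ_L livers and 37.8 ± 21.6 in BGZ_L livers (log2 fold change 1.83, adjusted p = 0.0139). The uptake carrier Slc22a7 (1.16, adjusted p = 0.0313) and the efflux pump Abcg2 (0.76, adjusted p = 0.0492) completed the 4. The canalicular conjugate pump Abcc2 (1.20, adjusted p = 0.0592) and the basolateral pump Abcc3 (-0.02, adjusted p = 0.985) were not called.

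The list on hydrolysis of glucuronides and sulfate esters held hydrolases and genes related to sulfatase activation. Of its 8 tested genes, 2 were higher and 1 lower in KYDS+BGZ_L against BGZ_L livers (median 0.56). In KYDS against CON livers 0 of 8 were called. Sumf2, a relative of the sulfatase-activating factor, had a log2 fold change of 1.67 (adjusted p = 0.0131), arylsulfatase Arsa of 0.85 (adjusted p = 0.0317) and arylsulfatase Arsb of -1.06 (adjusted p = 0.0248). Gusb, the glucuronidase, was not called (0.28, adjusted p = 0.587), nor was Sts, the steroid sulfatase (0.36, adjusted p = 0.649). Whether the called genes of this list act on products of UGTs or SULTs was not tested.

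All 20 listed regulators of UGT and SULT genes were tested, and 3 were higher and 3 lower in KYDS+BGZ_L against BGZ_L livers (median 0.21). The liver transcription factors Foxa2 (log2 fold change 1.72, adjusted p = 0.00636) and Foxa1 (1.25, adjusted p = 0.0166) were higher, as was Nfe2l2, the oxidative stress factor (0.92, adjusted p = 0.0171). The coactivator gene Ppargc1a averaged 1.09 ± 1.21 scaled TPM in KYDS+BGZ_L livers and 13.3 ± 12.1 in BGZ_L livers (SD, n = 5 each; log2 fold change -2.99, adjusted p = 0.00469). The fatty acid receptor Ppara (-1.99, adjusted p = 0.0269) and the pregnane X receptor Nr1i2 (-1.17, adjusted p = 0.041) were lower. In KYDS against CON livers Nfe2l2 was higher (0.87, adjusted p = 0.0467) and the constitutive androstane receptor Nr1i3 lower (-1.37, adjusted p = 0.0497). Neither the aryl hydrocarbon receptor gene Ahr (0.98, adjusted p = 0.19) nor the glucocorticoid receptor gene Nr3c1 (0.39, adjusted p = 0.308) was called in KYDS+BGZ_L against BGZ_L livers. The 5 lists had 0 called genes in the comparisons of BGZ_L and in the interaction.

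The 5 lists gave 22 calls over both hydrocortisone comparisons. Of these, 6 held in each of the 20 fits that left out 1 library, namely Sumf2, Slc35b2, Slco1a4, Slco1b2, Foxa2 and Ppargc1a in KYDS+BGZ_L against BGZ_L livers. In that comparison Nfe2l2 was lost without BGZ_L 3 (adjusted p = 0.0524) and Foxa1 without KYDS+BGZ_L 4 (adjusted p = 0.058), while the others were lost in 3 to 14 of the 20 fits. Of the calls between KYDS and CON livers, Slc35b2 was lost in 5, Slco1a4 in 6, and Nr1i3 and Nfe2l2 in 15 of the 20 fits. With the nuclear to mitochondrial covariate, Slc35b2 (adjusted p = 0.028), Slco1a4 (0.0107), Nfe2l2 (0.027), Foxa2 (0.0378) and Ppargc1a (0.0226) still passed in KYDS+BGZ_L against BGZ_L livers, and none of the 4 calls passed in KYDS against CON livers. With TPM recomputed over nuclear genes, 11 of the 18 calls in KYDS+BGZ_L against BGZ_L livers did not pass, Nfe2l2 among them (adjusted p = 0.224). The 7 that passed were Sumf2, Slc35b2, Slco1a4, Slco1b2, Foxa1, Foxa2 and Ppargc1a. That setting also ended 3 of the 4 calls in KYDS against CON livers, namely Slc35b2 (adjusted p = 0.137), Nr1i3 (0.305) and Nfe2l2 (0.325), and Slco1a4 passed (0.0484). Without scaling, the lower calls of Arsb (adjusted p = 0.663), Nr1i2 (0.687) and Ppara (0.15) in KYDS+BGZ_L against BGZ_L livers and of Nr1i3 (0.97) in KYDS against CON livers did not pass, while their fold changes stayed below 0.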

How the data were processed

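Liver RNA of 20 male rats was sequenced, and only read 1 was analysed, per the labels. The deposited values were read as TPM, since they have 2 decimals and nearly equal sums in every library. The sources used here do not give the aligner, the counter or how the authors computed TPM, so length scaling is inferred. The submitters' processing notes name the mouse builds GRCm38, GRCm39 and mm10, while the identifiers are those of rat genes in Ensembl.

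TPM values were scaled by an unweighted trimmed mean of log ratios (trim 0.3 of ratios, 0.05 of levels). Genes with at least 0.5 in at least 5 libraries, 11869 of 32883, were fitted as log2(scaled TPM + 0.5) with limma 3.58.1 in R 4.3.3, with 4 group means, 16 residual degrees of freedom and a trended, robust prior. Tests were two-sided contrasts, Benjamini-Hochberg adjusted over all tested genes, threshold 0.05. A fold change on this scale understates the change of low genes. Simulated data were used to test the scripts. Permutation p-values used 1e+05 resamples in SciPy 1.17.1. Of the 18 symbols, 17 matched RefSeq, 16 of them with a promoter window. Since the labels name separate rats, each library was 1 replicate, and no pair of libraries had identical values.

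The members, the gene lists and the rules were chosen with earlier results of these data known. Members called in any contrast, and the 2 most abundant expressed ones of each subfamily, were given in full. Alternatives covered the added constant, filter, scaling, prior, groups fitted, replicate block, a nuclear to mitochondrial covariate and libraries left out. The depth per library is unknown, so no detection limit was computed.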

Additional observations from a re-analysis of the deposited data

Results flagged for a closer look

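In 60 sets of 5 livers (15 genes in 4 groups), 4 held 1 liver far from the other 4 by Dixon's 95% criterion, a gap over 0.71 of the range, taken on log2(scaled TPM + 0.5). Chance alone flags about 1 set in 20. Ugt2b15 was 177 scaled TPM in KYDS 4, against 444 to 639 in the other KYDS livers, and mitochondrial genes took 68.9% of that library. Sult2b1 was listed at 0 in BGZ_L 3, where the other BGZ_L livers had 1.51 to 2.69 scaled TPM and the mitochondrial share was 81.9%. Sult2b1 was 4.36 in CON 1, against 1.99 to 2.18 in the other CON livers. Sult6b1 was 5.43 in BGZ_L 2, against 0 to 0.516 in the other BGZ_L livers.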

How the results depend on the processing

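In KYDS+BGZ_L against BGZ_L livers the count of called genes, 5 of 15, was 4 to 6 under the alternatives and 5 in every fit that left out 1 library. In KYDS against CON livers the count of 1 went to 8 without scaling, and to 0 with no filter, with TPM over nuclear genes, with only the groups compared, with the nuclear to mitochondrial covariate and without CON 2 and BGZ_L 3, and ran from 0 to 2 with 1 library left out. The other 3 contrasts stayed at 0 under these settings, of which a fit of only the groups compared does not exist for the interaction. Over all genes, the 744 calls of KYDS against CON became 5933 without scaling, 367 with no filter, 115 over nuclear genes, 181 with only the groups compared, 23 with the covariate, 256 without CON 2 and BGZ_L 3 and 226 to 1075 with 1 library left out. The 2059 calls of KYDS+BGZ_L against BGZ_L became 630 over nuclear genes, 669 with the covariate, 1361 without CON 2 and BGZ_L 3 and 1101 to 2517 with 1 library left out. Directions of uncalled genes turned as follows, and the cause was not tested. In KYDS against CON without scaling, the log2 fold change was 1.06 for Sult1a1, 0.2 for Sult1c2a, 0.72 for Sult1c3, 1.2 for Sult2a1, 0.11 for Sult5a1 and 0.61 for Ugt2a3. With the covariate it was 0.2 for Sult2a1, -0.2 for Ugt1a6 and -0.02 for Ugt2b10. In KYDS+BGZ_L against BGZ_L without scaling, it was 0.49 for Sult1a1, 0.09 for Sult1c2, 0.41 for Sult1c3, 0.05 for Sult2a1 and 0.25 for Sult5a1. Sult5a1 was also 0.39 with a constant of 0.1 and 0.04 over nuclear genes. With 1 library left out, values in KYDS+BGZ_L against BGZ_L ran from -0.16 to 0.43 for Sult1c2a, -0.36 to 0.55 for Sult5a1 and -0.62 to 0.28 for Sult6b1, and in KYDS against CON from -0.45 to 0.05 for Sult2a1. A block on the replicate number left 1 and 5 member calls (557 and 1890 over all genes). Same-numbered livers did not deviate together: 7 of 30 pairs correlated above 0.1, the range was -0.459 to 0.335, and 2 of 20 libraries correlated best with their own number.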

Other observations

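Summed over all 6 UGT genes, the scaled TPM had a lowest, median and highest value of 759.2, 1124 and 1586 in KYDS+BGZ_L livers, 506.4, 849.1 and 1112 in KYDS livers, 132.9, 200.2 and 484.7 in BGZ_L livers and 148, 574.5 and 1069 in CON livers. The lowest KYDS+BGZ_L and KYDS livers were above the highest BGZ_L liver, and the CON livers spanned most of the range. The 12 SULT genes summed to 540.6, 880.8 and 1597 in KYDS+BGZ_L livers, 532.5, 629.1 and 1592 in KYDS livers, 366.6, 1423 and 1701 in BGZ_L livers and 591.1, 609 and 1238 in CON livers, with all 4 groups overlapping. These sums are descriptions chosen after the values were seen.

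Ugt2a3 ran opposite to Ugt1a6 among the 10 hydrocortisone livers, a pattern picked out after its values were seen and not tested. The 3 livers highest in Ugt1a6 (KYDS+BGZ_L 1 and 4 and KYDS 3) had 70.3, 76.4 and 68.2 scaled TPM of Ugt2a3, the 3 lowest of those 10 livers. CON and BGZ_L livers did not share the pattern. CON livers had the same order in both genes, from CON 3 (Ugt1a6 13.3, Ugt2a3 59.3) up to CON 5 (45.2 and 326). BGZ_L 1 and 5 were the highest of their group in both genes.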
